A study of Mus musculus with 7 samples.

Results

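The genes described here encode receptors of the metabotropic glutamate family and the Homer scaffolds that bind some of them, in kisspeptin cells of the preoptic region, taken from the anteroventral periventricular nucleus (AVPV). The members were taken by symbol, namely Grm2, Grm3, Grm4, Grm5, Grm7, Grm8, Homer2 and Homer3. All 8 were among the 55384 genes of the deposited table, and all 8 passed a filter on low counts that left 18282 genes for testing. Ribosome-bound RNA was sequenced from 7 libraries of female mice on a C57BL/6 background, each made from AVPV punches of 4 pooled brains. Every mouse, in both groups, had the genotype Kiss1Cre+/Rpl22HA+/+, so that Cre driven by Kiss1 put an HA tag on the ribosomal protein Rpl22 and tagged ribosomes could be pulled down. The 4 libraries called GDX are of ovariectomized females given no estradiol, and the 3 libraries called E2 came from estradiol-treated females. The dose and duration of estradiol and the age of the mice are not given in the sources used here. The comparison addresses what differed between the groups in the RNA pulled down. No library of unselected RNA was among the 7, so enrichment for kisspeptin cells was not measured.

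Metabotropic glutamate receptors are G protein-coupled receptors that sense glutamate with a large extracellular domain and set neuronal excitability and transmitter release over slower times than glutamate-gated channels. Group I receptors, mGlu5 among them, couple to Gq and phospholipase C, lie mostly around the postsynaptic density and bind Homer proteins, which tether them to Shank scaffolds and to calcium release channels. Group II (Grm2, Grm3) and group III (Grm4, Grm6, Grm7, Grm8) couple to Gi/o proteins, lower cAMP, and often sit on nerve terminals, where they restrain release of glutamate or GABA. Kisspeptin neurons of the AVPV drive the preovulatory surge of gonadotropin-releasing hormone in rodents and respond to estradiol.

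Libraries held totals of 29207544 to 36213127 counts. Levels are given as CPM, counts scaled to a common library size. Kiss1 stood at 44.5 to 114 CPM in GDX and 379 to 485 CPM in E2, none of 7 kisspeptin cell markers was at 0, and the tagged gene Rpl22 did not pass (adjusted p = 0.451). Kiss1 shares exon sequence on its own strand with Gm28040, listed at 75.5 to 219 CPM in GDX and 1016 to 1193 CPM in E2, so its own level is uncertain. RNA of other cells was present. The 8 astrocyte markers summed to 1000.5 to 2799.6 CPM in GDX and 765 to 899 CPM in E2, the 6 oligodendrocyte markers to 2758 to 5728 and 2557 to 3074 CPM, and the 5 endothelial markers to 147 to 374 and 78.7 to 135 CPM, with none of these markers at 0. The 6 microglial markers summed to 69.6 to 91.5 CPM in GDX and 72.1 to 96.2 CPM in E2, the 5 markers of oligodendrocyte precursors to 153 to 225 and 140 to 169.5 CPM, and the 5 ependymal markers to 54.8 to 105 and 26.4 to 54.1 CPM, again with none at 0. The 6 neuronal markers summed to 2448 to 2843 CPM in GDX and 2605 to 2826 CPM in E2. The highest astrocyte sums were those of GDX replicates 1 and 4. In RNA from pooled tissue, fewer cells of a type and less RNA per cell cannot be told apart.

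Estradiol-treated females had less ribosome-bound Grm2 and Grm7 RNA, and the other 6 members did not pass the test. Grm2, a group II receptor gene, was 2.42-fold higher in GDX than in E2. Grm7, the gene of the group III receptor of the release zone of terminals, was 1.49-fold higher in GDX. Both calls were falls, so 2 of 8 members fell and none rose at a Benjamini-Hochberg adjusted p under 0.05 in edgeR. Of all genes tested 3.88% were called in either direction and 1.33% were called lower in E2. At an unadjusted p under 0.05 1 member, Grm4, was higher and the same 2 were lower. The share of all genes at that unadjusted threshold is not given here. DESeq2 and limma-voom each called 0 members higher and 2 lower. Of all 18282 genes, DESeq2 called 1400 (675 of them higher) and limma-voom 1109 (710 of them higher). The median log2 fold change, E2 over GDX, was −0.0597 over the 8 members and 0.00403 over all genes tested.

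**Figure D1:**
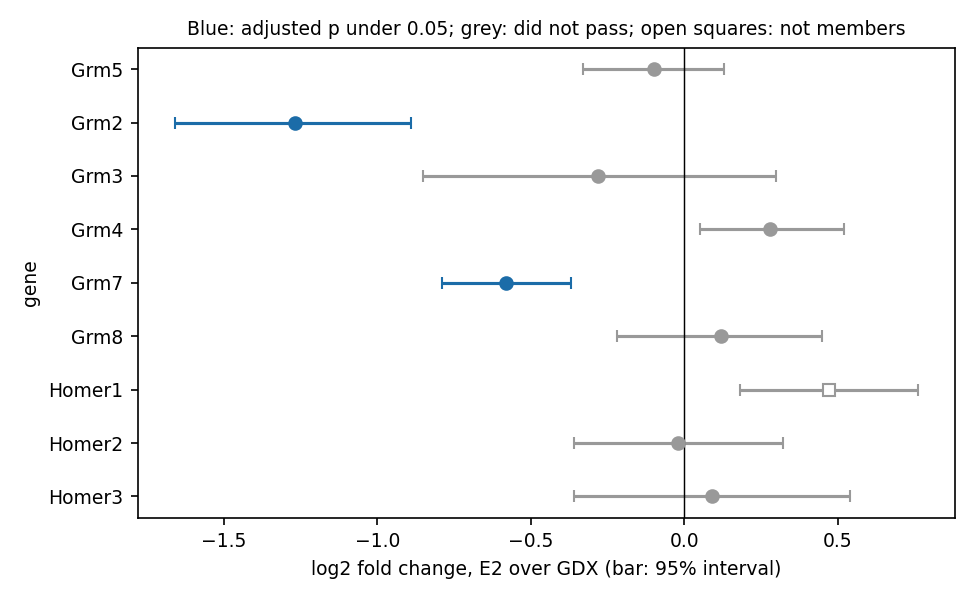
Log2 fold change of each gene, E2 over GDX, on the horizontal axis with its 95% interval, for the 8 members (filled circles) and for Homer1 (open square), which is not a member. Grm2 (−1.27) and Grm7 (−0.58) are the 2 members past an adjusted p of 0.05 and are drawn in blue, and the intervals of Grm5, Grm3, Grm8, Homer2 and Homer3 include 0.

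The 2 genes that fell are shown by the 250 bases upstream of a RefSeq start site (GRCm38.p6), to let their promoters be compared. The start site nearest to the annotated gene start was used, and sequences run 5′ to 3′ on the gene's strand. Capitals mark GC boxes (GGGCGG), the motif bound by Sp1-type factors. The Grm2 window is chr9:106656110-106656359 on the minus strand, and the Grm7 window is chr6:110645348-110645597 on the plus strand.
Grm2: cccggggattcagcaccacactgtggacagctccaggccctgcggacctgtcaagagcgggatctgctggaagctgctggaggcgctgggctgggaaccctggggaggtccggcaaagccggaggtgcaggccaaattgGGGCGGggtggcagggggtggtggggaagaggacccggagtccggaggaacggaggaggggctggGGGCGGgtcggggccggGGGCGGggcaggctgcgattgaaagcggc
Grm7: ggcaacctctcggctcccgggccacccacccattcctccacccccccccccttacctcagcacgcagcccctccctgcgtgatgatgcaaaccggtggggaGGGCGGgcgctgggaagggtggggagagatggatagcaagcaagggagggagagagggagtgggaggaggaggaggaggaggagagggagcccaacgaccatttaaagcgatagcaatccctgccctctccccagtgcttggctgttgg
Motifs were searched on both strands in windows of 300 bases that also take in 50 bases after the start. The Grm2 window held 4 GC boxes, of which 3 lay before the start, and the Grm7 window held 1. A GC box was present in all 6 members that had a promoter entry, against 35.7% of all 32851 promoter windows. The full estrogen response element (GGTCANNNTGACC) was in none of the 6 windows and in 0.07% of all windows. Its half-site (GGTCA, contained in the full element) was in 1 of the 6, that of Homer3, and in 40.5% of all windows. A TATA box (TATAAA) and a cAMP response element (TGACGTCA) were in none of the 6 and in 13.6% and 1.79% of all windows. GC content was 72% in the Grm2 window and 66.7% in the Grm7 window, and the letters alone do not show which factors bind.

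Grm5 was the group I member and one of the more abundant receptors. Grm5 encodes mGlu5, which raises intracellular calcium through phospholipase C and binds Homer proteins. Its level was 68.9, 65.4, 58.5 and 78.9 CPM in GDX replicates 1 to 4 and 62.4, 60.7 and 66.9 CPM in E2 replicates 1 to 3. The E2 values lay inside the range of the GDX values. The means were 67.9 ± 8.51 CPM (SD, n = 4) and 63.4 ± 3.19 CPM (SD, n = 3), and the log2 fold change of −0.10 ± 0.10 (SE) had a 95% interval of −0.33 to 0.13 and did not pass (adjusted p = 0.711). Grm5 (ENSMUSG00000049583) lies on chromosome 7, from 87584168 to 88134907 (GRCm38, plus strand), and its exons overlap no other annotated gene.

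Group II held the member with the largest change. Grm2 encodes mGlu2, a presynaptic receptor that lowers transmitter release when glutamate spills beyond the synapse. Its level was 17.7, 20.4, 21.2 and 16.6 CPM in the GDX libraries and 8.14, 9.46 and 5.95 CPM in the E2 libraries. The groups did not overlap: the highest E2 library, replicate 2, was well under the lowest GDX library, replicate 4. The mean was 19.0 ± 2.18 CPM (SD, n = 4) in GDX and 7.85 ± 1.78 CPM (SD, n = 3) in E2, with a log2 fold change of −1.27 ± 0.18 (95% interval −1.66 to −0.89, adjusted p = 0.00126). The counts behind these values were 180 to 771 per library. Grm2 stayed called in all 15 alternative fits, with a log2 fold change of −1.59 to −1.11. The adjusted p ran from 5.43e-11 to 0.0119. The lowest came with no filter on low counts, at an SE of 0.175, against 0.177 in the main fit. Without GDX replicates 1 and 4, a choice made after seeing the data, the log2 fold change of Grm2 was −1.41 (adjusted p = 0.000223). Grm2 (ENSMUSG00000023192) lies on chromosome 9, from 106643095 to 106656082 (minus strand). Its exons share 470 bp with the antisense gene Gm28111, which had at most 2 counts in any library.

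Grm3, the other group II gene, encodes mGlu3, which astrocytes express as well as neurons. It was 11.1, 5.74, 5.49 and 9.77 CPM in the GDX libraries and 6.23, 6.49 and 7.17 CPM in the E2 libraries. GDX replicates 1 and 4 were high, GDX replicates 2 and 3 were the lowest of all, and the 3 E2 libraries fell between these pairs. The mean was 8.03 ± 2.85 CPM (SD, n = 4) in GDX and 6.63 ± 0.485 CPM (SD, n = 3) in E2, and the log2 fold change of −0.28 ± 0.26 (95% interval −0.85 to 0.30) did not pass (adjusted p = 0.677). The same 2 GDX libraries were high in Gfap, an intermediate filament gene of astrocytes, at 1323 and 1765 CPM, against 313 and 356 CPM in the other GDX libraries and 163 to 203 CPM in E2. Aqp4, an astrocyte water channel gene, showed the same order, with 170.3 and 184 CPM, then 57.2 and 59.1 CPM, then 33.4 to 38.4 CPM. Aldh1l1, Gja1 and S1pr1 were also highest in GDX replicates 1 and 4, but the split was weak in other astrocyte markers. Aldoc was 417 and 409 CPM in these 2 libraries, 383 and 389 CPM in the other GDX libraries and 349 to 417 CPM in E2. Gjb6 was 28.8 and 52.6 CPM in these 2 libraries, against 25.5 and 26.5 CPM in the other GDX libraries. All 8 astrocyte markers had a lower mean in E2. In edgeR 0 of them were called and 4 were lower at an unadjusted p under 0.05, where limma-voom called 0 and DESeq2 called 3. With GDX replicates 1 and 4 left out, the log2 fold change of Grm3 turned to 0.23 (adjusted p = 0.766), and with a covariate, the mean log2 CPM of the non-neuronal markers (the non-neuronal score), to 0.58 (0.681). The part of astrocyte RNA in the Grm3 level was not tested. Grm3 (ENSMUSG00000003974) lies on chromosome 5, from 9485541 to 9725170 (minus strand).

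**Figure D2:**
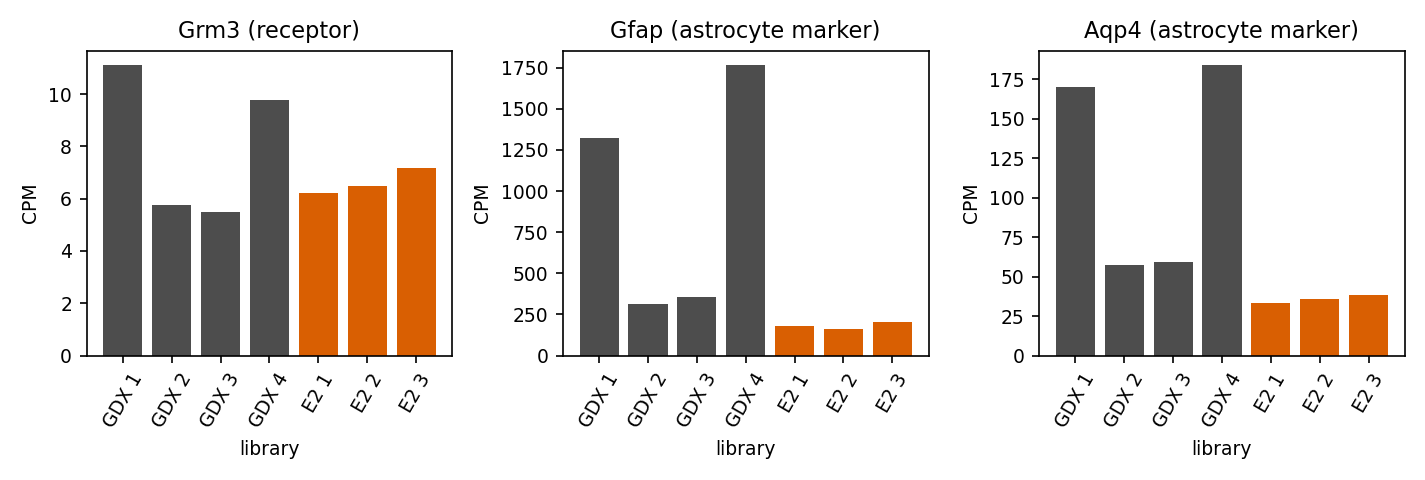
Level in CPM (vertical axis, from 0) of Grm3 and of the astrocyte markers Gfap and Aqp4 in each library, with GDX in grey and E2 in orange, 1 bar a library. GDX replicates 1 and 4 are the highest bars in all 3 panels, with Grm3 at 11.1 and 9.77 CPM.

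Per kilobase of exon, the mean level of Grm2 was above that of Grm3 in GDX and below it in E2. The ratio of Grm2 to Grm3 in CPM per kb was 0.991, 2.22, 2.4 and 1.06 in the GDX libraries and 0.814, 0.908 and 0.517 in the E2 libraries. The ratios did not overlap between groups, but the GDX ratios fell into 2 pairs, and the lower pair belonged to the replicates with high astrocyte markers. No test was made of this ratio.

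Within group III, Grm7 fell, and Grm4 and Grm8 did not pass. Grm7 encodes mGlu7, a receptor of low glutamate affinity in the active zone, which damps release under strong glutamate load. It was 67.0, 71.9, 62.1 and 78.8 CPM in GDX and 47.7, 48.2 and 44.6 CPM in E2. The 3 E2 libraries lay close together and below every GDX library. The mean was 69.9 ± 7.10 CPM (SD, n = 4) in GDX and 46.8 ± 1.94 CPM (SD, n = 3) in E2, with a log2 fold change of −0.58 ± 0.10 (95% interval −0.79 to −0.37, adjusted p = 0.00453). Grm7 kept its call in 14 of 15 alternative fits, and without GDX replicates 1 and 4 it was −0.52 (adjusted p = 0.00663). With the non-neuronal score as a covariate the value was −0.52 and the call was lost (adjusted p = 0.214). That score was 5.28 to 5.84 in GDX and 4.8 to 5.2 in E2, without overlap, so that score and the treatment cannot be told apart. Most non-neuronal markers had a lower mean in E2, beside Grm7 and Grm2. That held for all 6 oligodendrocyte markers, 4 of 5 markers of oligodendrocyte precursors and 3 of 6 microglial markers. The microglial sum was 69.6 to 91.5 CPM in GDX and 72.1 to 96.2 CPM in E2. In edgeR no microglial or oligodendrocyte marker had an unadjusted p under 0.05. Of the oligodendrocyte precursor markers 1, Cspg4, was lower at that threshold (unadjusted p = 0.0404 in edgeR). Of the 5 ependymal markers all were lower at an unadjusted p under 0.05, and edgeR and limma-voom each called 1, Rarres2 (log2 fold change −1.04, adjusted p = 0.0356 in edgeR), where DESeq2 called 2. Of the 5 endothelial markers 4 were lower at an unadjusted p under 0.05, with 0 called in edgeR and limma-voom and 1 in DESeq2. Their part in the Grm7 and Grm2 values was not tested beyond the covariate fits. Grm7 (ENSMUSG00000056755) spans chromosome 6 from 110645581 to 111567230 (plus strand). It shares 130 bp with the antisense gene Gm20387, at 0.549 to 0.973 CPM in GDX and 0.494 to 0.892 CPM in E2.

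Grm4 encodes mGlu4, also a presynaptic receptor, with higher glutamate affinity than mGlu7. Its level was 32.4, 31.5, 32.7 and 33.7 CPM in GDX and 36.4, 36 and 46.4 CPM in E2. All E2 libraries were above all GDX libraries, and E2 replicate 3 stood apart from the other E2 libraries. The mean was 32.6 ± 0.886 CPM (SD, n = 4) in GDX and 39.6 ± 5.92 CPM (SD, n = 3) in E2. Its log2 fold change was 0.28 ± 0.11 (95% interval 0.05 to 0.52), which missed the threshold (adjusted p = 0.202), and without E2 replicate 3 it was 0.15 (adjusted p = 0.554). Grm4 (ENSMUSG00000063239) lies on chromosome 17, from 27422387 to 27521403 (minus strand).

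Grm8 encodes mGlu8, a presynaptic receptor of high glutamate affinity. It was 13.1, 12.7, 11.1 and 14.3 CPM in GDX and 11.6, 14.3 and 15.7 CPM in E2. These ranges overlapped for most libraries, and the log2 fold change of 0.12 ± 0.15 (95% interval −0.22 to 0.45) did not pass (adjusted p = 0.785). Grm8 (ENSMUSG00000024211) lies on chromosome 6 from 27275119 to 28135178 (minus strand), and the microRNA gene Mir592 within it had 0 counts in all libraries. Grm6, the group III gene of retinal bipolar cells and no member, had 0 to 2 counts a library, under the floor of 3 counts in each of the 7 libraries (0.0818 to 0.101 CPM), and was not tested. Of the 8 members, levels did not overlap between the groups for Grm2, Grm7 and Grm4, which is 3 of 8, against 16.5% of all genes tested.

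**Figure D3:**
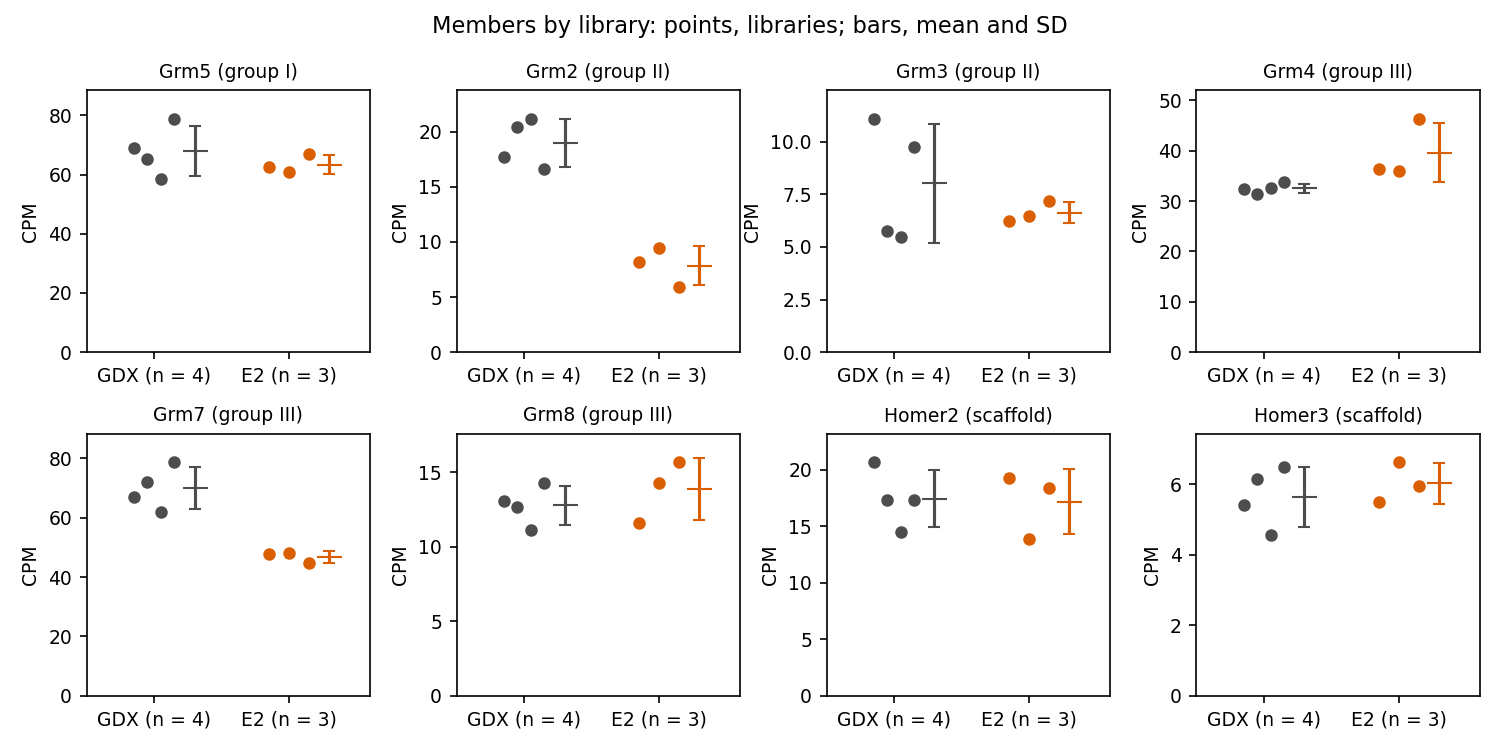
Level of each member in CPM (vertical axes from 0, on separate scales) by group, where points are libraries and the bar beside them is the mean with its SD. The E2 points of Grm2 (5.95 to 9.46 CPM) and Grm7 (44.6 to 48.2 CPM) lie below all GDX points, and those of Grm4 (36 to 46.4 CPM) lie above them.

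The Homer members showed no call. Homer2 and Homer3 encode long Homer proteins that bind group I receptors at one end and pair up with other Homer chains at the other. Homer2 was 20.7, 17.3, 14.5 and 17.3 CPM in GDX and 19.3, 13.9 and 18.4 CPM in E2. Homer3 was 5.40, 6.14, 4.56 and 6.48 CPM in GDX and 5.49, 6.63 and 5.95 CPM in E2. For both genes the groups overlapped. The log2 fold change was −0.02 ± 0.16 for Homer2 (95% interval −0.36 to 0.32, adjusted p = 0.973). For Homer3 it was 0.09 ± 0.21 (95% interval −0.36 to 0.54, adjusted p = 0.882). Homer2 (ENSMUSG00000025813) lies on chromosome 7 from 81600481 to 81707527 (minus strand), and its antisense partner Gm44570 had at most 8 counts. Homer3 (ENSMUSG00000003573) lies on chromosome 8 from 70282827 to 70294361 (plus strand). It shares 874 bp with Ddx49 on the opposite strand, an RNA helicase gene at 30 to 38.6 CPM in GDX and 40.6 to 46.6 CPM in E2. Since the libraries carried no strand information, the Homer3 level is uncertain.

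Homer1, the third scaffold gene and no member, also yields a short form that is induced by activity and uncouples the receptors. It was 17.0, 14.9, 16.4 and 16.9 CPM in GDX and 19.3, 26.8 and 21.4 CPM in E2. Every E2 library was above every GDX library, but at an adjusted p of 0.0863 the difference of 0.47 ± 0.13 on the log2 scale was not called. It passed with DESeq2 (adjusted p = 0.0335) and with no filter on low counts (0.0407), and the highest adjusted p among the alternatives was 0.352. The table gives 1 value a gene, so the short and long forms were not separated.

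To compare levels between genes, CPM was divided by the length of the union of each gene's exons. In GDX the order was Grm7 (11.9 ± 1.21 CPM per kb), Grm5 (6.63 ± 0.830), Grm4 (5.45 ± 0.148), Grm2 (3.88 ± 0.445), Grm3 (2.63 ± 0.934), Homer3 (1.64 ± 0.248), Homer2 (1.38 ± 0.203) and Grm8 (1.29 ± 0.135, each SD, n = 4). Grm7, Grm5 and Grm4 each had a range over libraries that did not overlap with that of the next gene, whereas Grm2 and Grm3, and the neighbours after them, did overlap. In E2 the order was Grm7 (7.95 ± 0.329 CPM per kb), Grm4 (6.62 ± 0.990), Grm5 (6.18 ± 0.311), Grm3 (2.17 ± 0.159), Homer3 (1.75 ± 0.167), Grm2 (1.6 ± 0.363), Grm8 (1.40 ± 0.209) and Homer2 (1.36 ± 0.229, each SD, n = 3). In E2 the first 3 overlapped with their neighbours, Grm5 and Grm3 were apart, Grm3 and Homer3 were apart, and the rest overlapped. With the longest transcript as length, Grm7 stayed first in both groups and Grm8 moved up to the fifth place in GDX and the fourth in E2. By that length the ranges of Grm5 (7.26 to 9.8) and Grm4 (6.84 to 7.31) overlapped in GDX. Those of Grm7 and Grm4 were then apart in E2. The transcripts in use in these cells are not known from the table, so the order of close neighbours depends on the length chosen.

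Shares of the summed CPM per kb of the 6 member receptors describe the mix in each library. Grm7 held 35.4, 39.1, 36.4 and 38.5% in GDX and 32.2, 31.9 and 28% in E2, and remained the largest share in all libraries but E2 replicate 3, where Grm4 held 28.7%. The Grm4 share was 16.2 to 18.9% in GDX and 23.5 to 28.7% in E2, without overlap. Grm2 held 9.75 to 14.9% in GDX and 4.5 to 7.54% in E2, also without overlap. The share of Grm5 was 20.8 ± 1.03% (SD, n = 4) in GDX and 23.8 ± 0.618% (SD, n = 3) in E2. By receptor group, group II (Grm2 and Grm3) went from 20.5 ± 1.69% to 14.6 ± 1.33%, and group III (Grm4, Grm7 and Grm8) from 58.7 ± 1.59% to 61.6 ± 0.922%. Shares sum to a fixed total, so a lower share of one receptor raises the others, and no test was made of them. With the longest transcript as length Grm7 held the largest share in every library, at a mean of 40.0% rather than 37.4% in GDX. The Grm8 share was 6.43% rather than 4.07% in GDX and 8.4% rather than 5.39% in E2. The group II shares also depended on length. Grm2 held 9.81% rather than 12.3% in GDX and 4.88% rather than 6.22% in E2. Grm3 held 6.3% rather than 8.21% in GDX and 6.33% rather than 8.37% in E2.

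**Figure D4:**
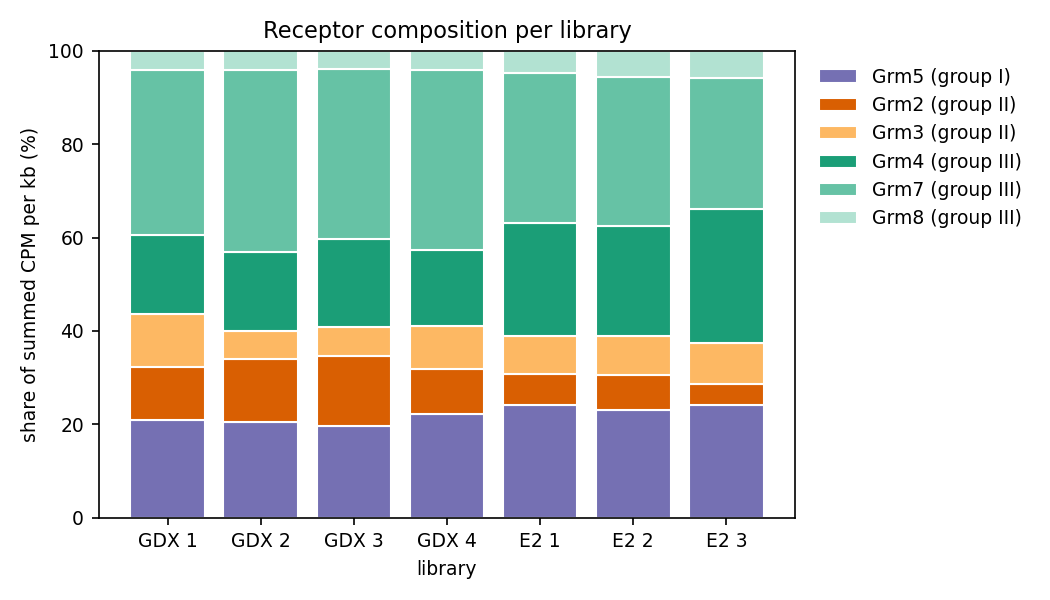
Share of each member receptor in the summed CPM per kb of the 6 (vertical axis, percent), 1 stacked bar for each library. The Grm2 segment is 9.75 to 14.9% in the GDX bars and 4.5 to 7.54% in the E2 bars, and the Grm4 segment is 16.2 to 18.9% and 23.5 to 28.7%.

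Partner genes of the receptors were counted in 6 lists chosen by function, with 53 genes, all of them tested. In edgeR 3 of 53 rose, Elfn1, Dlgap1 and Rgs4, and 0 fell, where 2.55% of all genes tested were called higher and 1.33% lower. With so few calls, the counts for these lists are near that background and say nothing particular to them. At an unadjusted p under 0.05 7 were higher and 2 lower. DESeq2 called 4 higher, Homer1 being the fourth, and 0 lower, and limma-voom called 3 higher and 0 lower. Of all 18282 genes, DESeq2 called 675 higher and limma-voom 710. The share of all genes at the unadjusted threshold is not given here. The median log2 fold change of the 53 genes was 0.0169, beside 0.00403 over all genes tested.

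Elfn1 encodes a postsynaptic adhesion protein that binds group III receptors, mGlu7 among them, across the synapse. It was 26.8, 28.3, 24.2 and 24.8 CPM in GDX and 35.2, 44.6 and 44.5 CPM in E2. All E2 libraries were higher than all GDX libraries, and the log2 fold change was 0.67 ± 0.11 (adjusted p = 0.0047). Its call was lost with the non-neuronal score as a covariate (0.78, adjusted p = 0.0615). The other 9 of 10 genes in the list of receptor binding proteins did not pass. Among them were Ncdn (log2 fold change 0.04, adjusted p = 0.905) and Grasp (−0.04, adjusted p = 0.951), which encode norbin and tamalin, binding proteins of group I receptors.

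Dlgap1 encodes a scaffold that links Shank to the postsynaptic density. It was 84.1, 66.3, 57.3 and 74 CPM in GDX and 106, 102 and 115 CPM in E2, without overlap, and rose by 0.61 ± 0.12 on the log2 scale (adjusted p = 0.0113). Its call was lost without E2 replicate 1 (adjusted p = 0.0553) or E2 replicate 3 (0.0772). The other 7 of 8 scaffold genes did not pass, among them Homer1 and Shank1 (0.18, adjusted p = 0.467). Rgs4, which speeds the shut-off of Gi/o and Gq signals, had a mean of 180.1 ± 14.2 CPM (SD, n = 4) in GDX and of 232 ± 25.6 CPM (SD, n = 3) in E2, and rose by 0.37 ± 0.09 on the log2 scale at an adjusted p of 0.0485, just inside the threshold. Its call was lost in 8 of 15 alternative fits, among them those without GDX replicate 1 (adjusted p = 0.119), GDX replicate 2 (0.116), E2 replicate 1 (0.247) and E2 replicate 2 (0.185). The other 5 genes of receptor desensitisation did not pass, with Grk2 at 0.02 (adjusted p = 0.945) and Grk3 at 0.08 (adjusted p = 0.735).

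The lists of the signalling arms and of uptake held no call, and with 3.88% of all genes called, lists of this size are too short to set a count of 0 apart from the background. For the Gq and phospholipase C arm edgeR called 0 of 10 genes, DESeq2 and limma-voom also called 0, and 1 reached an unadjusted p under 0.05. Gnaq and Gna11, which encode the G protein subunits of group I receptors, had log2 fold changes of −0.01 (adjusted p = 0.968) and 0.03 (adjusted p = 0.911). For the Gi/o and adenylyl cyclase arm edgeR, DESeq2 and limma-voom each called 0 of 14, and 0 had an unadjusted p under 0.05. Gnao1, the main Gi/o subunit gene of neurons, was 632 ± 18.8 CPM (SD, n = 4) in GDX and 634 ± 11.4 CPM (SD, n = 3) in E2, a log2 fold change of 0.0043 with a 95% interval of −0.13 to 0.14. Gnai1 was at −0.12 (adjusted p = 0.457). Of 5 genes of glutamate uptake edgeR, DESeq2 and limma-voom called 0, and 1 was higher and 1 lower at an unadjusted p under 0.05. Slc1a1, the neuronal transporter gene, was at 0.04 (adjusted p = 0.879), and Slc1a2, the main astrocyte transporter gene, at −0.35 (adjusted p = 0.398). Slc1a2 was 570.4 and 522 CPM in GDX replicates 1 and 4 and 329.9 to 384 CPM elsewhere, which was the same split of libraries as for Grm3 and Gfap. Without those 2 GDX libraries its log2 fold change was −0.02 (adjusted p = 0.953).

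**Figure D5:**
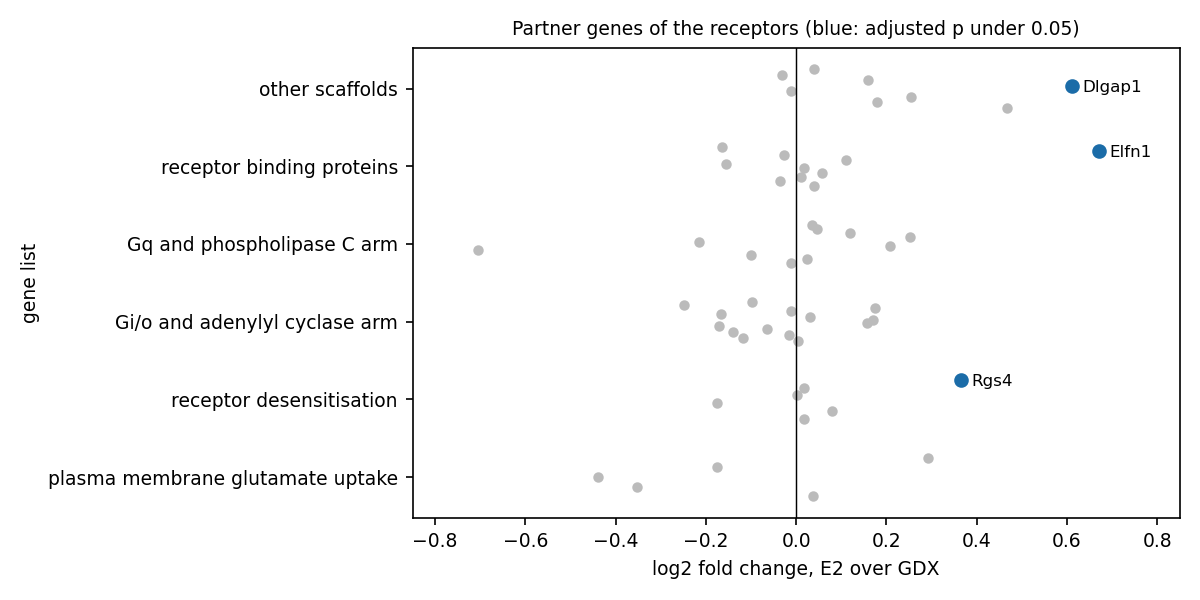
Log2 fold change, E2 over GDX (horizontal axis), of the 53 partner genes in 6 lists (rows), 1 point a gene. The 3 called genes, Elfn1 (0.67), Dlgap1 (0.61) and Rgs4 (0.37), are drawn in blue and named, and all others are grey.

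For the 2 members that fell, the genes with the most similar profile were sought among 11745 protein-coding genes whose mean was 5 CPM or more, by Pearson's r of log2 CPM over the 7 libraries. For Grm2 these were Gfra2 (r = 0.987; 105 CPM in GDX and 83.7 CPM in E2), Bet1 (0.981; 15.2 and 11.2 CPM) and Tex264 (0.979; 50.5 and 38 CPM). The most opposite was Sv2b, a synaptic vesicle protein gene (r = −0.999; 24.6 and 40.1 CPM). For Grm7 the closest were Pign (0.988; 19 and 14.9 CPM), Sphkap (0.984; 127 and 92.1 CPM) and Slc8b1 (0.981; 7.54 and 4.97 CPM), and the most opposite was Pip5k1b, a phosphoinositide kinase gene (−0.997; 19.3 and 29.8 CPM). In edgeR Bet1 (adjusted p = 0.11), Pign (0.156) and Slc8b1 (0.116) were not called between the groups, and the others named here were. All these points share the same 7 libraries and the split into GDX and E2, so each r largely restates a difference between the groups, and it is given as a description. None of the 3 genes closest to Grm2 was among the 3 closest to Grm7. Lists of 3 out of 11745 genes are too short to tell whether Grm2 and Grm7 share a pattern.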

How the data were processed

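RNA bound to HA-tagged ribosomes was measured in 7 libraries (4 GDX, 3 E2), each from a pool of 4 brains, made from polyadenylated RNA without strand information per the labels' protocols. The deposited values are expected counts per gene, not normalized, and 33.1% of the non-zero ones were not whole. Trimmomatic 0.38, STAR 2.6.0a, RSEM 1.3.0 and mm10 are named in the submitters' processing notes without their roles, and the gene annotation is not given in the sources used here.

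Counts were rounded and fitted in R 4.3.3 with edgeR 4.0.16 (TMM factors, filterByExpr with a minimum count of 10 and total of 15, robust quasi-likelihood test, adjusted over all 18282 genes). CPM uses TMM-scaled library sizes, and fitted log2 fold changes use a prior count of 0.125. Identifiers were matched to GENCODE vM21 (GRCm38, 55203 of 55384). Promoters and start sites are from RefSeq (GRCm38.p6). Alternatives were RLE factors, library sizes alone, no filter, DESeq2 1.42.0, limma-voom with quality weights (limma 3.58.1), the replicate number as a block, a non-neuronal marker score (mean log2 CPM, prior count 2) as covariate, each library left out, and another gene length. The fits were also run on simulated counts with known changes. The simulation held no difference in cell mix between the groups, and its outcome is not given here. Floors and intervals cover counting or between-library error only, and p-values measure spread between pools.

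Members and lists were chosen with earlier results of these data known. Named genes are the members, Grm6, Homer1, Kiss1, Rpl22 and Pgr, and from each list up to 3 called genes and the first 2 that did not pass, beside the genes most similar to each called member. Markers and overlapping genes named beside a result were added after their values were seen. One result planned for the lists is not reported here. Pgr, a target of estradiol, was 23.5 to 33.1 CPM in GDX and 109 to 132 CPM in E2.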

Additional observations from a re-analysis of the deposited data

Results flagged for a closer look

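Of 27 named genes, 2 had a GDX library far from the other 3 by Dixon's criterion for 4 samples, where chance marks about 1 group in 20. Kiss1 stood at 114 CPM in GDX replicate 4, against 44.5 to 56.0 CPM in the other GDX libraries. Grk2, a receptor kinase gene, stood at 183 CPM in the same library, against 210.3 to 213 CPM in the others. None of the 8 members met the criterion.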

How the results depend on the processing

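The count of 2 called members was the same in 14 of 15 alternatives and became 1 (Grm2) with the non-neuronal covariate. Genes called overall numbered 710, and 1609 with no filter, 1400 with DESeq2, 1109 with limma-voom, 232 with the covariate, and 364 (without E2 replicate 1) to 974 (without GDX replicate 3) with 1 library left out (418 without E2 replicate 2, 458 without E2 replicate 3). The share of rises among them was 65.8%, and 52.2% with library sizes alone, 44.9% with no filter and 48.2% with DESeq2. The 3 called partner genes became 1 with the covariate, and 1 (without E2 replicate 1) to 4 (without GDX replicate 4) with 1 library left out. The cause of these shifts was not tested, beyond the number of genes tested without a filter (33537). The replicate number did not pair the libraries: deviations from group means correlated at −0.0205, −0.038 and −0.0555 between same-numbered libraries, and no E2 library correlated best with its own number. With the replicate block 612 genes, 2 members and, of the partner genes, 2 were called. No E2 library had the number of GDX replicate 4, so that library did not bear on the group difference in this fit.

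Sign changes occurred only among genes that were not called, in 46 fits of 11 genes, with the lowest adjusted p at 0.681. With the covariate the log2 fold change turned to 0.12 for Grm5, 0.58 for Grm3, 0.17 for Homer2, 0.11 for Gnaq, −0.03 for Gnao1, −0.02 for Slc1a1 and 0.23 for Slc1a2. Without GDX replicates 1 and 4 it was 0.03 for Grm5, 0.23 for Grm3, 0.11 for Homer2, −0.03 for Ncdn, 0.06 for Gnaq, −0.02 for Gnao1 and −0.04 for Grk2. With library sizes alone it was −0.02 for Ncdn, −0.04 for Gna11, −0.06 for Gnao1, −0.04 for Grk2 and −0.02 for Slc1a1. With limma-voom it was −0.03 for Ncdn, 0.0084 for Gnaq and −0.02 for Grk2, and with the replicate block −0.02 for Ncdn, 0.04 for Gnaq and −0.03 for Grk2. Gnao1 was −0.0026 with RLE factors, −0.0017 with no filter and −0.0026 with DESeq2. With 1 library left out the ranges were −0.11 to 0.11 for Homer2, −0.08 to 0.15 for Ncdn, −0.24 to 0.07 for Grasp, −0.05 to 0.05 for Gnaq, −0.02 to 0.08 for Gna11, −0.0071 to 0.03 for Gnao1, −0.03 to 0.06 for Grk2 and −0.0055 to 0.06 for Slc1a1. The cause was not tested. Leaving out a library leaves 2 in the smaller group at times. The members with the most counting error include Grm3 and Homer3, with 166 to 408 counts a library. Grm2 was as low as 180 counts, in E2 replicate 3, so its E2 values carry counting error of a similar size.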
